A study of Homo sapiens with 4 samples.

Results

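MCAM and other genes of cell-surface adhesion proteins (ALCAM, L1CAM, BCAM, EPCAM, F11R, ICAM1, NECTIN1, NECTIN2 and CADM1) were examined in HT-29 cells, an established human colorectal adenocarcinoma line. They were taken by gene symbol and are 10 of the 20322 targets in the deposited table, each target being a single transcript of its gene. MCAM was chosen by its difference in estimated counts between the groups of these same libraries, and the values of the other genes were known when the set was made. All values that compare the groups for these 10 genes are therefore descriptions and carry no test. Every sample had been treated with CRISPR/Cas9 against IGF2BP1, which encodes IMP1, a protein of fetal tissues and tumours that binds mRNAs, and the lines are labelled as derived from a mouse liver metastasis. In IMP1-OE cells (2 libraries) a PiggyBac vector then supplied FLAG-tagged IMP1 with a short UTR, and null cells (2 libraries) carried the empty PiggyBac vector. The comparison shows which mRNAs differ in level between lines given IMP1 and lines given the empty vector. All cells were kept under puromycin. The series' design text gives 2 cell lines per genotype and does not say whether these are separate clones, so the spread behind each p-value is that between these libraries and may be technical in part.

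Adhesion proteins of the immunoglobulin superfamily hold cells to each other or to the matrix through folded extracellular domains, and bind the cytoskeleton through a short cytoplasmic tail. MCAM (CD146) is best known on endothelium, pericytes and melanoma, where it binds laminins and galectins. Nectins and JAM proteins start epithelial junctions, ICAM1 is the inflammation-induced counter-receptor of leukocyte integrins, and EPCAM, which carries no immunoglobulin fold, is the classic surface marker of gut epithelium.

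Short stretches of promoter show the sequence context of MCAM and ICAM1, the members whose levels differ most in opposite directions. RefSeq promoters (GRCh38.p14, 250 bases before to 50 after the start) were found for 6 of the 10 genes. Capitals mark a match to a cyclic AMP response element (TGACGTCA) in MCAM, and in ICAM1 matches to an NF-kB-like motif (GGAANTTCC) and to an interferon-activated element (TTCNNNGAA).
MCAM, chr11:119317144-119317173, minus strand: ccccgccccccTGACGTCAgcccccggcag
ICAM1, chr19:10270924-10270953, plus strand: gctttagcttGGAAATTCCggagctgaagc
ICAM1, chr19:10271035-10271064, plus strand: ggcgcgaggtTTCCGGGAAagcagcaccgc
Each of these motifs reads the same on both strands and none of the printed matches overlap. Of 35116 RefSeq promoter windows of this length, 1.85% hold the cyclic AMP element, 0.965% the NF-kB-like motif and 7.66% the interferon-activated element. The GC box GGGCGG, searched on both strands, is in each of the 6 promoters found and in 45% of all windows. NECTIN2 is the only other gene of the 6 with the cyclic AMP element. A match describes letters and does not show binding.

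The libraries held 9343429 to 10594813 estimated counts. IGF2BP1 had 71 and 112 counts in the IMP1-OE libraries, against 37 and 16 in the null libraries, so its order follows the labels. The null libraries differed from each other more than the IMP1-OE libraries did: a chi-square statistic of the counts within a group came to 19.2 per degree of freedom for IMP1-OE and 55.3 for null, more than sampling noise gives in either group. Values without either null library are given below. Epithelial genes were abundant throughout, with KRT8 at 10767 and 10634 TPM in IMP1-OE and 10864 and 8382 TPM in null. KRT20 ran from 359 to 585 TPM. The intestinal factor CDX2 was at most 0.153 TPM in IMP1-OE, and at 2.39 TPM in null replicate 1 and 0.119 TPM in null replicate 2. TPM is a count per effective length, scaled to 1000000 in each library, and is used here to compare levels between genes. CPM, counts scaled to 1000000 per library with TMM factors, is the main scale to compare a gene between libraries. Marker genes, summed levels and the genes under other observations are given in TPM, which has no TMM factor. ARSI, the target with the most counts, took 8.01% and 12.4% of counts in IMP1-OE and 17.8% and 17.3% in null. A larger ARSI share lowers the TPM of all other genes in that library.

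By level per length the genes spanned a wide range, in the same leading order in both groups: EPCAM, then BCAM, NECTIN2, MCAM and NECTIN1. EPCAM stood at 1285 and 991 TPM in IMP1-OE and at 1213 and 1061 TPM in null, above 99.3% of all targets in IMP1-OE. It made up 71.6% and 67.9% of the summed TPM of the 10 genes in IMP1-OE, against 78.5% and 58.0% in null. In IMP1-OE the libraries of each gene lay apart from those of the next one down to F11R. In null the ranges of BCAM and NECTIN2 overlapped, as did those of MCAM with NECTIN1, NECTIN1 with ICAM1, and ICAM1 with ALCAM. MCAM stood above 90.1% of targets in IMP1-OE and above 75.0% in null. Of the summed TPM without EPCAM, MCAM was 12.6% and 14.2% in IMP1-OE, against 4.29% and 2.75% in null.

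**Figure D1:**
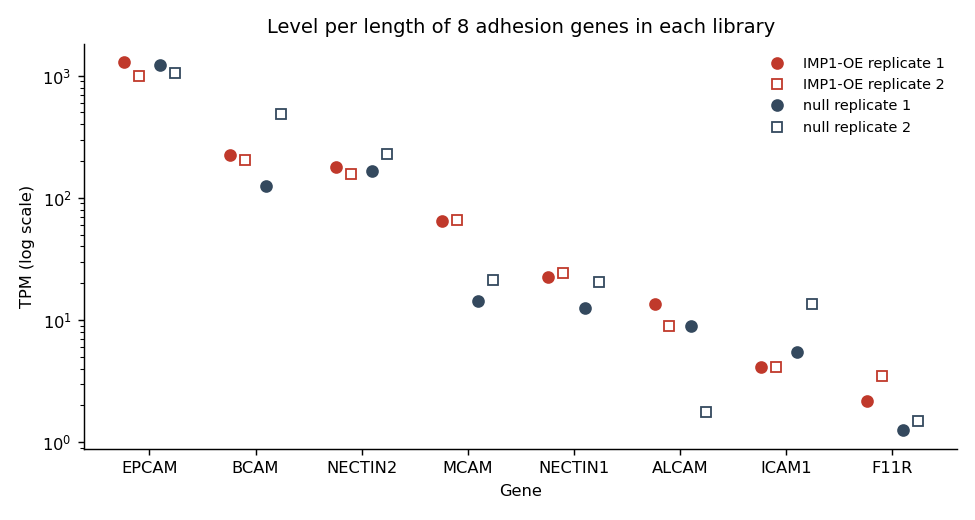
Level per length (TPM, log axis) of the 8 adhesion genes with enough counts, 1 point per library, ordered by mean level. EPCAM lies near 1000 TPM in all 4 libraries, and MCAM at 64.0 and 66.3 TPM in IMP1-OE and 14.2 and 21.2 TPM in null.

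MCAM, the melanoma and endothelial adhesion molecule, had 1190 and 1256 counts in the IMP1-OE libraries, which is 113 and 119 CPM. In null it had 270 and 344 counts, or 26.4 and 37.6 CPM. Every IMP1-OE library lay well above every null library, and the gap between the groups was much wider than the spread within either. The means were 116 ± 4.35 CPM in IMP1-OE, with 32.0 ± 7.95 CPM in null (SD, n = 2 each, as for all means here), a fitted 3.63-fold difference (log2 fold change 1.86, SE 0.23). Of 12113 genes tested, 0.809% had a fitted fold change at least as high, MCAM included. Leaving out null replicate 1 gave a log2 fold change of 1.63, and leaving out null replicate 2 gave 2.14. In bulk RNA, fewer cells with a transcript and less of it per cell cannot be told apart.

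Among the junction-forming genes, NECTIN1, whose product opens adherens junctions through afadin, stood at 71.8 and 78.3 CPM in IMP1-OE and at 41.9 and 64.8 CPM in null. The groups did not overlap, but null replicate 2 came close to the IMP1-OE libraries. The fitted log2 fold change was 0.49 (SE 0.25), and 0.21 without null replicate 1 and 0.84 without null replicate 2. MCAM and NECTIN1 lie on chromosome 11 with 5 protein-coding genes between them (RefSeq, GRCh38.p14).

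F11R, the gene of the tight junction protein JAM-A, had 56 and 92 counts in IMP1-OE and 33 and 34 in null. These are 5.33 and 8.75 CPM in IMP1-OE, with 3.23 and 3.72 CPM in null, so the order of the groups was that of MCAM at a far lower level. The fitted log2 fold change was 1.02 (SE 0.49), with counting error large at this depth. At 1.25 to 3.48 TPM F11R was the lowest of the 8 genes that could be fitted. Only its 4639 nt target was counted, and other transcripts of F11R are not analysed here.

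NECTIN2, the paralog of NECTIN1 and a ligand of lymphocyte receptors, stood at 199 and 180 CPM in IMP1-OE and at 194 and 255 CPM in null. The groups overlapped, and the fitted log2 fold change was -0.24 (SE 0.20), or -0.03 without null replicate 2. BCAM, a laminin receptor of epithelium and red cells, is the next protein-coding gene to NECTIN2 on chromosome 19. It had 288 and 265 CPM in IMP1-OE, between null replicate 1 at 166 CPM and null replicate 2 at 622 CPM. Of the genes tested, 6.51% differed between the null libraries by at least the 3.75-fold ratio of BCAM. NECTIN2 was 1.32-fold higher in the same null library. The log2 fold change of BCAM was -0.51 (SE 0.56) with all libraries, -1.17 without null replicate 1 and 0.73 without null replicate 2, so its direction rests on which null library is used.

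ALCAM (CD166), a homophilic adhesion protein that also binds CD6 on T cells, had 314 and 213 counts in IMP1-OE, against 215 and 36 in null. At 29.9 and 20.2 CPM, the IMP1-OE libraries sat on either side of null replicate 1 at 21.0 CPM, while null replicate 2 was at 3.94 CPM. The null libraries of ALCAM thus differed by 5.34-fold, a ratio that 4.44% of tested genes reached or passed, and in the direction opposite to BCAM. Its log2 fold change was 1.00 (SE 0.71), 2.67 without null replicate 1 and 0.25 without null replicate 2.

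ICAM1 had 68 and 69 counts in IMP1-OE and 93 and 196 in null. These are 6.47 and 6.56 CPM in IMP1-OE, while null replicate 1 had 9.10 CPM and null replicate 2 had 21.4 CPM. Both null libraries lay above the IMP1-OE libraries, which hardly differed from each other. The log2 fold change was -1.23 (SE 0.48), a fitted 2.34-fold lower level. Leaving out null replicate 2 gave -0.48 and leaving out null replicate 1 gave -1.72. EPCAM stood at 1049 and 823 CPM in IMP1-OE and at 1038 and 870 CPM in null. Its groups overlapped almost fully, with a log2 fold change of -0.03 (SE 0.20) that took either sign when a library was left out (-0.21 to 0.15), and 0.06 when only library totals were used for scaling.

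**Figure D2:**
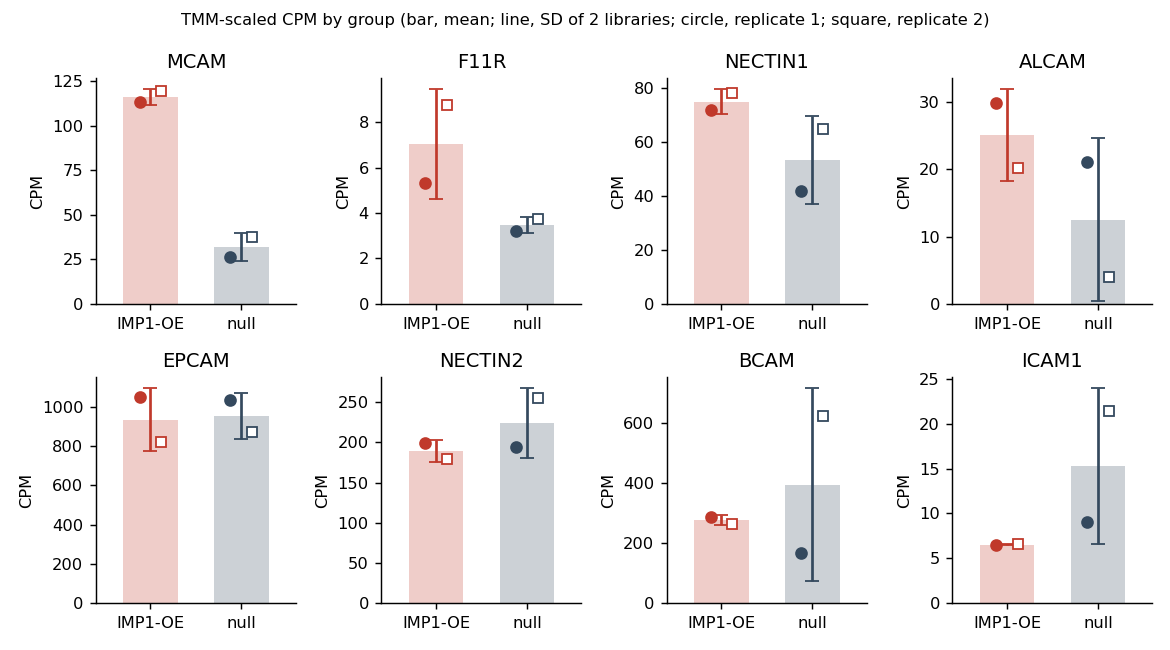
TMM-scaled CPM of 8 adhesion genes (linear axes from 0), with bars for the mean of 2 libraries, lines for the SD, circles for replicate 1 and squares for replicate 2. The groups lie apart for MCAM, F11R, NECTIN1 and ICAM1, and the null libraries of BCAM (166 and 622 CPM) and ALCAM (21.0 and 3.94 CPM) lie far from each other.

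L1CAM, a neural adhesion protein also found at invasive tumour edges, had 0 counts in both IMP1-OE libraries and 0 and 4 counts in null. CADM1, an adhesion protein often silenced in carcinoma, had 0 and 1 counts in IMP1-OE and 0 in both null libraries. A count of 0 allows up to 3 counts in a library, which is 0.285 to 0.328 CPM, so both genes were at or about the limit of detection. They did not pass the filter on low counts and get no fold change.

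Of the 8 genes that passed the filter, 4 were fitted higher and 4 lower in IMP1-OE, and their median log2 fold change was 0.23. Over all genes tested it was -0.02, with 5821 higher and 6292 lower. Both IMP1-OE libraries lay above both null libraries for 3 of the 8 (MCAM, F11R and NECTIN1), which 21.3% of tested genes did, and below them for 1 (ICAM1), which 21.9% did, so that the groups lay apart for 4 of the 8 and for 43.2% of tested genes. The edgeR quasi-likelihood test called 0 of the 8 and 0% of all genes at an adjusted p of 0.05. At an unadjusted p under 0.05 it gave MCAM higher and ICAM1 lower, where 4.34% of all genes were higher and 5.84% lower, 10.2% together. In the authors' deposited table MCAM passes (log2 fold change 1.78, adjusted p 3.04e-08) and the other genes do not, where 1.28% of genes with an adjusted p pass, 0.428% as higher and 0.849% as lower. The direction is not stated there. A positive sign was read as higher in IMP1-OE, since for nearly all genes the sign matches that of DESeq2 fitted here as IMP1-OE over null. DESeq2 on the same counts called MCAM, among 1.28% of genes with an adjusted p (164 genes). The adjusted p of each tested member matches the deposited one, so this repeats the authors' comparison and is no separate check. The limma-voom fit called 0 of the 8 and 0.00826% of all genes (1 gene), with MCAM alone of the 8 under an unadjusted p of 0.05, as 9.39% of all genes were. With no filter on low counts edgeR called MCAM, among 0.129% of genes. Since these values chose MCAM, the calls describe it and are not further evidence. The deposited log2 fold change of ICAM1 is -0.11 in the authors' deposited table, far smaller than the fitted value here.

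Leaving out a null library changed these calls, but each such fit keeps 1 null library. Its spread within groups then comes from the IMP1-OE pair alone, which differed less (19.2 against 55.3 per degree of freedom for null). The calls that follow therefore carry no spread between null libraries, which was wide for ALCAM and BCAM, and only describe these fits. Without either IMP1-OE library edgeR called 0 of the adhesion genes. Without null replicate 1 edgeR called MCAM and ALCAM as higher and BCAM and ICAM1 as lower, among 6.46% of all genes. Without null replicate 2 it called MCAM alone, among 0.396% of all genes.

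**Figure D3:**
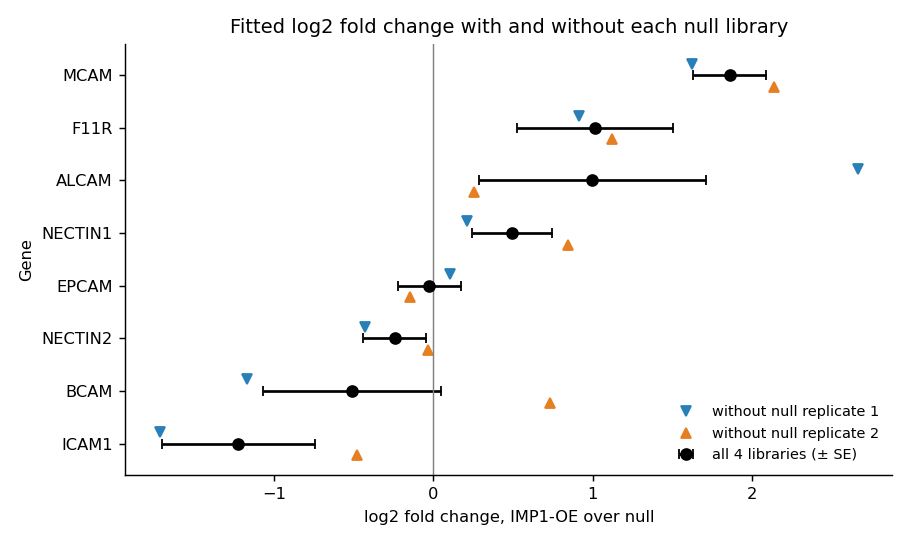
Fitted log2 fold change of IMP1-OE over null for 8 adhesion genes (circles, with SE bars, all 4 libraries), and the same without null replicate 1 (triangles pointing down) or without null replicate 2 (triangles pointing up). MCAM stays between 1.63 and 2.14, ALCAM spans 0.25 to 2.67, and BCAM lies at -1.17 or 0.73.

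The genes nearest to MCAM in pattern were found by the distance between profiles of log2 CPM over the 4 libraries, each centred on its own mean. The 5 nearest were PATE4 (distance 0.224), PLEKHO1 (0.309), LIMS2 (0.385), HDAC8 (0.428) and ERV3-1 (0.447). LIMS2, a focal adhesion adaptor, stood at 55.5 and 51.6 CPM in IMP1-OE and at 16.4 and 18.1 CPM in null. HDAC8, a histone deacetylase, stood at 22.4 and 18.1 CPM in IMP1-OE and at 5.97 and 6.57 CPM in null. The remaining 3 were below 5 CPM in all libraries, so their profiles carry large counting error. Of the adhesion genes, F11R ranked 133 and NECTIN1 582 of 11862 genes with a count in every library. EPCAM ranked 6013, NECTIN2 7232, ALCAM 7638, BCAM 8911 and ICAM1 11009. The ranks rest on the same library values that chose MCAM, so they are descriptions. F11R, at 3.23 and 3.72 CPM in null, also carries large counting error.

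MCAM is expressed by endothelium, pericytes and melanoma cells, so their markers are given beside it. Of 9 endothelial markers, ERG had no counts, and CDH5, VWF, TEK, CLDN5, TIE1 and PECAM1 were each at most 0.914 TPM. EGFL7 stood at 3.95 and 0.554 TPM in IMP1-OE and at 5.81 and 3.72 TPM in null. The summed level of the 9 was 36.2 and 25.4 TPM in IMP1-OE and 34.6 and 44.7 TPM in null, most of it from ESAM. Of these 9, 4 were tested: 2 had a positive log2 fold change and 2 a negative one (median -0.18). The melanocyte genes MLANA, TYR and TYRP1 had no counts, and the 7 melanocyte and melanoma markers summed to 2.59 and 1.83 TPM in IMP1-OE and to 1.01 and 0.888 TPM in null. PMEL, the only tested marker of these 7, had 2.21 and 1.05 TPM in IMP1-OE and 0.978 and 0.163 TPM in null. It was fitted higher in IMP1-OE (log2 fold change 1.43, SE 1.07), from 31 and 15 counts in IMP1-OE and 14 and 2 in null. DCT, MITF and SOX10 were each at most 0.671 TPM. The pericyte and smooth muscle markers summed to 102 and 87.0 TPM in IMP1-OE and to 35.1 and 38.4 TPM in null. CSPG4, a proteoglycan of pericytes and melanoma, was 98.8 and 82.7 TPM of that in IMP1-OE and 29.1 and 17.6 TPM in null, while RGS5 and PDGFRB were at most 0.154 TPM in any library. The other 2 tested markers of this list were fitted lower in IMP1-OE, and the median log2 fold change of the 3 was -0.55. ACTA2, the smooth muscle actin, had 2.28 and 2.90 TPM in IMP1-OE, while null replicate 1 had 3.28 TPM and null replicate 2 had 18.6 TPM. MYH11, a smooth muscle myosin, had 0.674 and 0.764 TPM in IMP1-OE, while null replicate 1 had 0.635 TPM and null replicate 2 had 1.45 TPM. The part of these markers in the level of MCAM was not tested. Summed levels of 6 fibroblast markers were at most 6.67 TPM, and ALB and APOA1 of hepatocytes had no counts, although SERPINA1 stood at 687 and 714 TPM in IMP1-OE and at 417 and 225 TPM in null. The 6 leukocyte markers summed to 2429 and 2197 TPM in IMP1-OE and to 3436 and 1824 TPM in null, nearly all from LYZ. CD3E had no counts and PTPRC at most 0.184 TPM. CD14 stood at 17.2 and 9.99 TPM in IMP1-OE and at 20.6 and 59.8 TPM in null. CD68 stood at 13.9 and 6.64 TPM in IMP1-OE and at 18.0 TPM in both null libraries. LYZ, CD14 and CD68 were the 3 tested leukocyte markers, and all were fitted lower in IMP1-OE (median -0.84). The 6 markers of neurons and glia summed to 38.1 and 51.2 TPM in IMP1-OE and to 26.6 and 13.9 TPM in null, most of it from TUBB3, with S100B at 0 counts. SYP, a synaptic vesicle protein and the other tested marker of that list, ran the other way with 0 and 2 counts in IMP1-OE and 13 and 27 counts in null.

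Ligands and co-receptors of these adhesion proteins were mostly fitted lower in IMP1-OE. Of 29 listed genes 16 were tested, 12 with a lower and 4 with a higher fitted level, and the median log2 fold change was -0.40. LGALS3, the gene of galectin-3, which binds MCAM, stood at 26.4 and 24.5 CPM in IMP1-OE and at 88.8 and 72.1 CPM in null. LGALS1, another galectin that binds MCAM, stood at 7.04 and 5.80 CPM in IMP1-OE and at 14.6 and 36.2 CPM in null. LAMB2, a laminin chain, stood at 32.8 and 36.7 CPM in IMP1-OE and at 52.7 and 80.1 CPM in null. LGALS3 and LGALS1 pass as lower in the authors' deposited table (2.41e-06 and 0.0251 as adjusted p), where 0.849% of genes with an adjusted p pass as lower. In edgeR 0 of the 16 passed. At an unadjusted p under 0.05, 5 were lower and 0 higher, where 5.84% of all genes were lower and 4.34% higher. This list and those below were chosen with earlier results of these data known, so their counts are descriptions. The laminin chain gene LAMA4, the VEGF receptor gene KDR and the leukocyte integrin gene ITGB2, which encode partners of MCAM or ICAM1, had no counts in any library.

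Among the cytoplasmic partners, moesin was the most different by its unadjusted p. Of 22 listed genes 21 were tested, 8 with a higher and 13 with a lower fitted level, with a median log2 fold change of -0.13. Moesin (MSN), an actin linker that binds the tails of ICAM1, L1CAM and MCAM, stood at 942 and 972 CPM in IMP1-OE and at 613 and 401 CPM in null (log2 fold change 0.92, SE 0.24). The adjusted p of MSN in the authors' deposited table is 0.0343, as higher, where 0.428% of genes with an adjusted p pass as higher. Its relative ezrin (EZR) stood at 450 and 443 CPM in IMP1-OE and at 548 and 540 CPM in null. AFDN, which encodes the afadin that anchors nectins, stood at 93.5 and 95.4 CPM in IMP1-OE and at 118 and 128 CPM in null, and RAP1A, a small GTPase that acts through afadin, at 34.5 and 38.1 CPM in IMP1-OE with 45.4 and 56.7 CPM in null. In edgeR 0 of the 21 passed, and MSN alone was under an unadjusted p of 0.05, as 10.2% of all genes were.

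Among the proteases that shed such proteins and their inhibitors, 16 of 17 listed genes were tested, 5 with a higher and 11 with a lower fitted level (median log2 fold change -0.34). ADAM10, a sheddase of ALCAM, L1CAM and nectins, stood at 142 and 150 CPM in IMP1-OE and at 199 and 200.1 CPM in null. SPINT2, an inhibitor of the serine proteases that cleave EPCAM, stood at 1326 and 1152 CPM in IMP1-OE and at 1579 and 2302 CPM in null. BACE2, a transmembrane aspartyl protease, lay on the other side at 71.7 and 64.4 CPM in IMP1-OE, with 49.5 and 40.3 CPM in null. In edgeR 0 of the 16 passed. At an unadjusted p under 0.05, 4 were lower and 1 higher, where 5.84% of all genes were lower and 4.34% higher. Without null replicate 2 the median was -0.10.

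Other immunoglobulin-superfamily adhesion genes were spread about 0, with 6 of 14 tested genes higher and 8 lower (median log2 fold change -0.18) out of 32 listed. Without null replicate 1 the median was 0.19. BSG (CD147), a partner of lactate transporters, was the most abundant of them at 1533 and 1292 CPM in IMP1-OE, with 1159 and 959 CPM in null. VSIG2, a surface protein of gut epithelium, stood at 50.9 and 55.3 CPM in IMP1-OE and at 102 and 86.3 CPM in null. NECTIN3, the usual partner of NECTIN1 and NECTIN2 across junctions, stood at 12.8 and 11.4 CPM in IMP1-OE and at 16.8 and 16.4 CPM in null. VSIG1, a gastric junction protein, stood at 6.28 and 7.60 CPM in IMP1-OE, while null replicate 1 had 72.0 CPM and null replicate 2 had 1.31 CPM. In edgeR 0 of the 14 passed, and VSIG2 alone was under an unadjusted p of 0.05, as 10.2% of all genes were.

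Genes that NF-kB or interferon induces together with ICAM1 were all fitted lower in IMP1-OE (10 of 10 tested, 18 listed), and their median log2 fold change was -0.82. Without null replicate 2 the median was -0.11, with 5 of the 10 lower. The summed level of the 18 was 283 and 278 TPM in IMP1-OE, 282 TPM in null replicate 1 and 872 TPM in null replicate 2, the library in which ICAM1 was highest. IRF1, a factor that interferon induces, stood at 37.2 and 44.6 CPM in IMP1-OE and at 53.1 and 86.8 CPM in null, and NFKB2, an NF-kB subunit, at 14.9 and 16.7 CPM in IMP1-OE with 23.6 and 38.2 CPM in null. GBP1, an interferon-induced GTPase, had 3 and 14 counts in IMP1-OE and 25 and 136 counts in null. TNF, CCL2, SELE and VCAM1 had no counts in any library. In edgeR 0 of the 10 passed, with 3 lower at an unadjusted p under 0.05, where 5.84% of all genes were lower. The part of these genes' inducers in the level of ICAM1 was not tested.

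**Figure D4:**
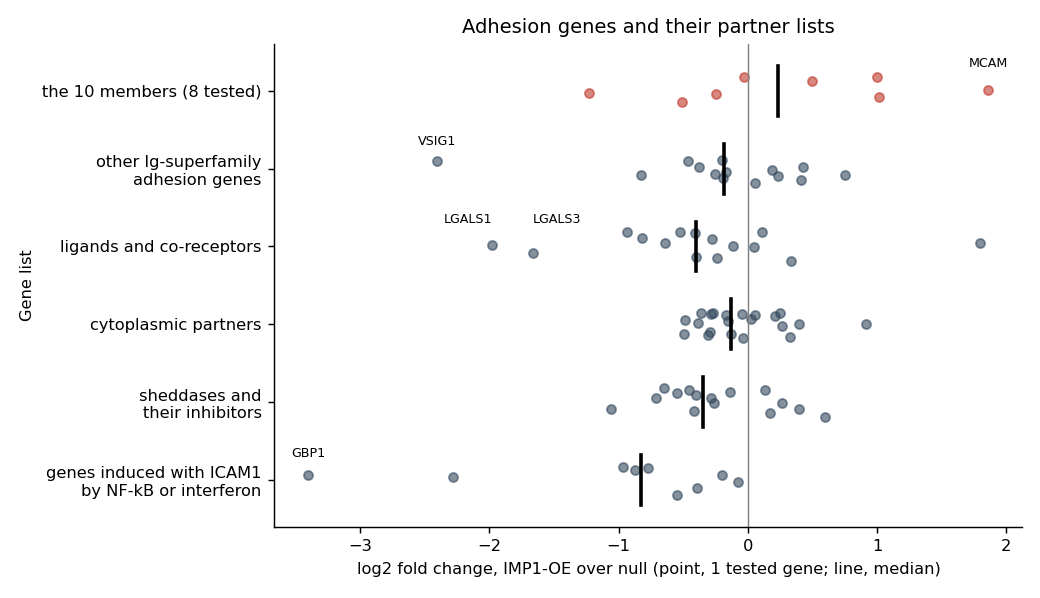
Fitted log2 fold change of IMP1-OE over null for the tested adhesion genes and for 5 lists of related genes (1 point per gene, vertical line at the median of all tested genes of the list, vertical jitter without meaning, 3 list genes not reported here not drawn). The list medians run from -0.82 for genes induced with ICAM1 to 0.23 for the adhesion genes, and LGALS3 lies at -1.66.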

How the data were processed

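Per the labels' protocols, RNA of cleared lysates was fragmented by heat, fragments of 18 to 50 nt were ligated to linkers with random-base identifiers, ribosomal RNA was depleted and cDNA amplified for 15 cycles. Per the submitters' processing notes, the tools were kallisto 0.46.2, HISAT2 2.1.0, fastp 0.21, cutadapt 3.5 and a DESeq of no stated version, with no roles given. The genome build, the annotation and any use of the identifiers were not given in the sources used here. Limits of detection cover counting error only.

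The deposited values are kallisto estimated counts per the file headers, whole numbers as deposited, for 1 transcript per gene. Short fragments can match related genes. The effective lengths, given in nt as another kind of value, are the authors' own. The authors' deposited comparison table gives a mean normalized signal, log2 fold changes and standard errors, with raw and adjusted p-values. A further 2 sample names in the count table match no label and are not analysed here.

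TPM was recomputed from counts and effective lengths. Genes were tested with edgeR 4.0.16 in R 4.3.3 (TMM scaling, default low-count filter, 12113 genes, quasi-likelihood F test, Benjamini-Hochberg adjustment, threshold 0.05), IMP1-OE against null, without covariates. The fit was tested on simulated data, with large changes placed in well-counted genes and equal spread in both groups. That setting differs from these libraries, so it does not show how the fit handles small changes or unequal spread. The SE of an edgeR log2 fold change was taken as its absolute value divided by the square root of the F statistic. An exact permutation test of 2 against 2 libraries cannot give p under 0.333. The alternatives were limma 3.58.1 (voom), DESeq2 1.42.0, other filters and scalings, a replicate block and the omission of each library or of ARSI, the target with the most counts.

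The members and the gene lists were chosen with earlier results of these data known. Named are all 10 members, IGF2BP1, the 4 genes of each list with the smallest edgeR p, any list gene past the threshold and the 5 genes nearest to MCAM, except 3 list genes that are counted in their lists and not reported here. Marker genes, list genes with no counts and any other gene with values were named after their values were seen.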

Additional observations from a re-analysis of the deposited data

How the results depend on the processing

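With edgeR, 0 genes passed with all 4 libraries, under either other scaling and without ARSI. The count was 22 with no low-count filter, 1 with at least 10 counts in every library, 1 with limma-voom and 164 with DESeq2. Leaving out 1 library in turn gave 0 to 783 genes, with 0 when either IMP1-OE library was left out, 48 without null replicate 2 and 783 without null replicate 1. Each of these fits keeps 1 library in a group and takes its spread from the other group alone. The cause of these shifts was not tested. Of the genes on the 5 lists, 0 passed with all libraries, 1 with no filter (LGALS3), 4 with DESeq2, and 0 to 15 with 1 library left out. MCAM itself passed with no filter, with DESeq2 and without either null library. With the replicate number as a block, 15 genes passed, of the listed genes 1, and of the adhesion genes 0. The numbers are shared between the groups but no label says that they mark a common batch, and differences between replicates 1 and 2 correlated across genes between the groups with r = 0.123 (12113 genes), so the pairing was not used. The log2 fold change of MCAM, ALCAM, F11R, ICAM1, NECTIN1 and NECTIN2 kept its sign in all 12 alternatives, that of BCAM in 11 and that of EPCAM in 9. For MCAM it ran from 1.63 to 2.14. TPM means moved by more than the SD for 1 of 20 values with full target lengths and for 4 of 20 without ARSI. Genes with under 100 counts, such as F11R and ICAM1 in some libraries, are limited by depth.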

Other observations

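Some intestinal surface and identity genes stood high in null replicate 1. GPA33, an immunoglobulin-superfamily antigen of colon epithelium, was at 0 and 0.0691 TPM in IMP1-OE, against 4.14 TPM in null replicate 1 and 0.322 TPM in null replicate 2. CDH17, the intestinal cadherin, was at 0.390 and 1.39 TPM in IMP1-OE, against 6.02 TPM in null replicate 1 and 0.223 TPM in null replicate 2. ICAM2, a relative of ICAM1 on endothelium and platelets, was at 0 TPM in both IMP1-OE libraries, against 0.582 TPM in null replicate 1 and 6.28 TPM in null replicate 2. These genes were picked after their values were seen, and with 1 library on each side the differences between null libraries have no replicate check.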
